A study of Mus musculus with 2 samples.

Results

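Transcription factors that steer effector differentiation of T lymphocytes were followed through the immune cells that infiltrate the pancreatic islets of diabetes-prone mice: Tbx21, Eomes, Tox, Prdm1, Id2, Batf, Maf, Irf4, Bhlhe40 and Gata3. These 10 were taken by exact gene symbol, and all 10 were found among the 27998 genes of the deposited tables. The 12-week group is 1 library of CD45.1+ cells sorted by flow cytometry from the islets of 12-week-old female NOD/ShiLtJ mice. The 7-week group is 1 library of the same sorted population from female NOD/ShiLtJ mice that were 7 weeks old. NOD/ShiLtJ is an inbred strain whose females develop autoimmune diabetes spontaneously, and CD45.1 is the form of the pan-leukocyte surface protein that this strain carries. Both groups share strain, sex and sort, no treatment is given for either, and the labels used here do not say how many mice entered a library.

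A naive T cell that meets its antigen switches on factors of the basic leucine zipper, T-box and zinc-finger families, and the mixture it settles on decides which cytokines, killing molecules and inhibitory receptors it makes. Batf and Irf4 bind DNA together at composite sites with Jun proteins and act early after stimulation of the antigen receptor. Tbx21 (T-bet) and Eomes are T-box factors of interferon-gamma production and cytotoxicity in CD8 T cells and natural killer cells, and Gata3 is the zinc-finger factor of helper 2 cells that all T cells also need during development. Id2 blocks E proteins and favours effector over memory precursors, Prdm1 (Blimp-1) is a repressor of terminally differentiated effector cells and of plasma cells, and Tox maintains T cells under lasting antigen exposure. Maf drives interleukin-10 and interleukin-21 in helper cells, and Bhlhe40 promotes cytokine production while it restrains interleukin-10.

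In the GRCm38 annotation (the assembly also called mm10) all 10 are protein-coding genes, and no chromosome but 12 holds more than 1 of them. The T-box genes are Tbx21 on chromosome 11 (97098071 to 97115331, minus strand) and Eomes on chromosome 9 (118478212 to 118486132, plus strand). Batf lies on chromosome 12 (85686669 to 85709087, plus strand), as does Id2 (25093799 to 25097140, minus strand), and Irf4 on chromosome 13 (30749226 to 30766976, plus strand). Tox is on chromosome 4 (6686353 to 6991557, minus strand), Prdm1 on chromosome 10 (44437177 to 44528501, minus strand) and Bhlhe40 on chromosome 6 (108660629 to 108666925, plus strand). The helper cell factors are Maf on chromosome 8 (115682942 to 115707794, minus strand) and Gata3 on chromosome 2 (9857078 to 9890034, minus strand).

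The start regions of these genes were searched for letters that factors of these families bind. RefSeq promoter windows of 300 bases (250 before and 50 after the start, build GRCm38.p6) matched 7 of the 10 genes. The search took 6 patterns on both strands: TGANTCA for AP-1 proteins such as Batf with Jun, GTGTGA for T-box factors, CACGTG for the E-box bound by Bhlhe40, a pair of GAAA with any 2 bases between them for IRF proteins, the same pair with GT between them for Prdm1, which lies inside the IRF pattern, and AGATAA for GATA factors. Across 32851 promoters of the same length they were present in 7.81%, 14.5%, 7.15%, 3.44%, 0.253% and 11.2% of windows, in that order. A match was found in 3 of the 7 windows, each to a different pattern, and these are printed with the match in capitals. The share of all windows with any of the 6 patterns was not counted, so 3 of 7 cannot be set against it. The Prdm1 window, chr10:44458699-44458998 on the minus strand, has TGAATCA 48 bases before the start.
Prdm1: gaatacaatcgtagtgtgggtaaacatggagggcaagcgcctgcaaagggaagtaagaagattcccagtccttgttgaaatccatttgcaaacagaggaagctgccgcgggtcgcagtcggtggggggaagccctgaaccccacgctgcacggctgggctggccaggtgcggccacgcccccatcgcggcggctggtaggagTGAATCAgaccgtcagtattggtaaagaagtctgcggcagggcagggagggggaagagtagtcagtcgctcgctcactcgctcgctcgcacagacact
The Eomes window, chr9:118477939-118478238 on the plus strand, has GAAAATGAAA 154 bases before the start.
Eomes: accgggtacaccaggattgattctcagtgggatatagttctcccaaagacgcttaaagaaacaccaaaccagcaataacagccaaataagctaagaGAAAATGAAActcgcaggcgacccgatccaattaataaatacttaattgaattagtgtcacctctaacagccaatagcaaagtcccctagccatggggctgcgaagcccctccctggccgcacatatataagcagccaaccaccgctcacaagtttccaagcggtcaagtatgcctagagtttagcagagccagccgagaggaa
The Batf window, chr12:85686470-85686769 on the plus strand, has the GATA letters on its minus strand, read here as TTATCT, 245 bases before the start.
Batf: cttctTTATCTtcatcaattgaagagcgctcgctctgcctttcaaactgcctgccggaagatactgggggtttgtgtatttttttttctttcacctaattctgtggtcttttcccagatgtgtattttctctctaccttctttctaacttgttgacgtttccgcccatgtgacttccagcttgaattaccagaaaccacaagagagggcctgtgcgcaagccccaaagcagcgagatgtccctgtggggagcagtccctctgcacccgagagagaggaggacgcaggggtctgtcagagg
The windows of Tbx21, Id2, Irf4 and Gata3 held none of the 6 patterns. A match is a run of letters and not a shown binding site. The starts used for Prdm1, Id2 and Gata3 lie inside the annotated genes, and those for Batf and Irf4 lie just inside them.

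After filtering, the 12-week library held 2741 cells and the 7-week library 1099, with a median of 4934 and 5636 UMIs (counted RNA molecules) per cell. T cells were barcodes with a Cd3 UMI and at most 1 Cd79a UMI, split by UMIs of marker genes. There were 460 CD8 T, 817 CD4 T, 101 Foxp3+ T, 70 Ncr1+ and 485 B cells at 12 weeks and 171, 356, 82, 90 and 113 of them at 7 weeks. A level is the summed UMIs of a gene in a population over all UMIs of that population, given as counts per 10 to the sixth UMIs (CPM), and intervals are 95% Poisson or binomial intervals that cover counting error only. Because there was 1 library per age and cells of a library are not replicates, no test was possible, and a gene is called past the fold where a CPM ratio is at least 1.5 or at most its inverse with at least 10 UMIs over both sides. T cell markers were at 23.5 to 65.2 UMIs per 10000 in the T and Ncr1+ populations described here. Single cells with macrophage or endocrine RNA stood out in a few of them. One cell held 97.5% of the macrophage marker UMIs of Lag3-high CD4 T cells at 12 weeks (35.4 per 10000), and 1 cell held 91.8% of the endocrine marker UMIs of Lag3-low CD4 T cells at 12 weeks (19.3 per 10000). Leaving out every cell with over 1% of its UMIs in markers of another type changed no count of members past the fold by over 1.5 times.

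Every factor except Irf4 was past the fold upward in both T cell lineages against B cells at both ages. B cells, which stand as the type that should lack the T-lineage factors, gave 5 Tbx21, 2 Eomes, 8 Tox, 12 Maf and 4 Gata3 UMIs in 485 cells at 12 weeks, and 0, 0, 2, 6 and 2 UMIs in 113 cells at 7 weeks. These background levels were at most 9.19 CPM, reached by Maf at 7 weeks. The B gate took only cells without a Cd3 or Ncr1 UMI, which lowers them. Over all 679 and 183 cells with at least 2 Cd79a UMIs, Maf had 5.11 and 24.1 CPM, Tox 8.03 and 11.7 CPM and Tbx21 4.38 and 3.11 CPM. Past the fold against B cells, 10 of 10 members were higher at 12 weeks and 9 of 10 at 7 weeks in CD4 T cells, where 30.4% and 37.8% of all genes were higher and the median of all genes was shifted by 0.19 and 0.29 on the log2 scale. In CD8 T cells 9 of 10 were higher at each age, beside 27.4% of all genes at 12 weeks and 34.1% at 7 weeks and a median shift of 0.16 and 0.23. Irf4, which activated B cells also use, had 25.3 CPM in CD4 T cells and 16.0 CPM in B cells at 12 weeks, and 22.8 and 18.4 CPM at 7 weeks. In CD8 T cells Irf4 had 13.0 CPM against 16.0 CPM in B cells at 12 weeks and 16.3 against 18.4 CPM at 7 weeks, and both ratio intervals included 1 (0.521 to 1.27 and 0.428 to 1.95).

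**Figure D1:**
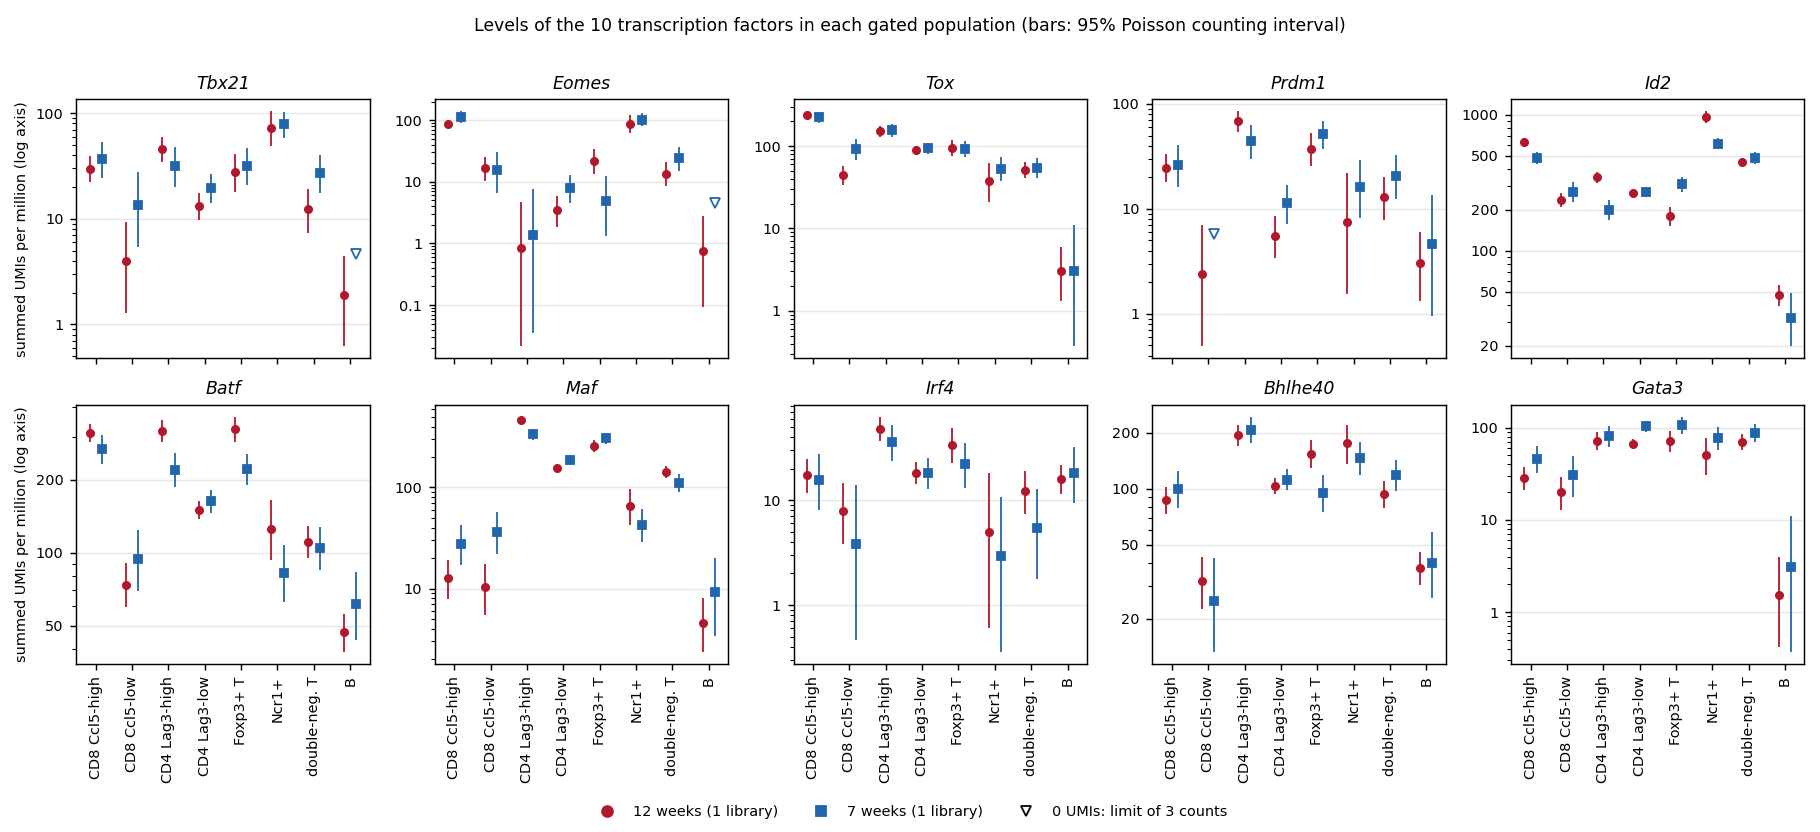
Summed UMIs as CPM (log axis) of each of the 10 factors in 8 gated populations, at 12 weeks (red circles, left) and 7 weeks (blue squares, right), with 95% Poisson counting intervals; an open triangle marks the limit that 0 UMIs allow. Eomes is high in Ccl5-high CD8 T and Ncr1+ cells and near the B cell level in Lag3-high CD4 T cells, whereas Maf is highest in Lag3-high CD4 T cells at both ages.

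Some of the factors differed in level between CD8 and CD4 T cells, and others were close. Eomes was the factor most tied to CD8 T cells, with 55.0 CPM in CD8 T cells and 2.81 CPM in CD4 T cells at 12 weeks, a ratio of 19.5 (interval 11.4 to 36.4), and 81.0 against 6.16 CPM at 7 weeks, a ratio of 13.1 (7.87 to 23.3). Maf ran the other way, at 11.3 CPM in CD8 T cells against 227 CPM in CD4 T cells at 12 weeks and 28.6 against 227 CPM at 7 weeks. Gata3 had 23.7 CPM in CD8 T cells against 68.2 CPM in CD4 T cells at 12 weeks, and 38.1 against 97.9 CPM at 7 weeks. Bhlhe40 was also lower in CD8 T cells, at ratios of 0.512 at 12 weeks and 0.456 at 7 weeks. Tbx21 was near the same level in both, at 17.9 CPM in CD8 T and 20.9 CPM in CD4 T cells at 12 weeks and 26.6 and 22.8 CPM at 7 weeks. Batf was likewise close, with ratios of 1.11 and 1.13. In all, 3 members were higher and 4 lower in CD8 T cells at 12 weeks, where 9.77% of all genes were higher and 16.4% lower. At 7 weeks 1 was higher and 3 lower, where 10.4% and 20.6% of all genes were.

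CD8 T cells of the islet were divided into a Ccl5-high and a Ccl5-low state, Ccl5 being a chemokine of effector and memory CD8 cells, and 8 of the 10 factors were past the fold upward in the Ccl5-high state at each age. Of all genes, 26.3% were higher and 14.5% lower at 12 weeks, and 24.8% and 13.2% at 7 weeks. The Ccl5-high cells (at least 10 Ccl5 UMIs) numbered 214 at 12 weeks and 85 at 7 weeks, the Ccl5-low cells (at most 3) 217 and 74, and 29 and 12 cells in between were left out. Median UMIs were 5898.5 per Ccl5-high cell and 5001 per Ccl5-low cell at 12 weeks, and 7270 against 5331 at 7 weeks. The median ratio of the members was 1.77 on the log2 scale at 12 weeks and 1.45 at 7 weeks, beside a shift of 0.17 and 0.12 over all genes compared.

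Both T-box factors were among the 8. Tbx21 had 29.9 CPM in Ccl5-high and 3.97 CPM in Ccl5-low cells at 12 weeks, a ratio of 7.53 (3.03 to 24.2), and 36.7 against 13.4 CPM at 7 weeks, a ratio of 2.74 (1.17 to 7.42). Eomes had 86.7 against 16.7 CPM at 12 weeks, a ratio of 5.21 (3.29 to 8.65), and 113 against 15.3 CPM at 7 weeks, a ratio of 7.36 (3.57 to 17.6). Thinned to 3000 UMIs per cell, so that depth is equal, 20.6% of Ccl5-high cells at 12 weeks and 25.6% at 7 weeks held an Eomes UMI, against 2.76% and 4.29% of Ccl5-low cells. The thinned share of B cells was 0.206% at 12 weeks, and at 7 weeks 0 of 113 B cells held an Eomes UMI at full depth, which allows a share of up to 2.65%. After thinning the Tbx21 ratio was 4.06 at 12 weeks and 6.83 at 7 weeks, so the age with the larger ratio was not the same at equal depth. The 12-week Eomes ratio was 18.2 without the 5 richest cells of each side.

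Prdm1 was scarcely found in the Ccl5-low state. It had 43 UMIs in Ccl5-high cells and 3 in Ccl5-low cells at 12 weeks, which is 24.7 against 2.38 CPM and a ratio of 10.4 (3.32 to 52.3). At 7 weeks the Ccl5-high cells held 20 Prdm1 UMIs and the Ccl5-low cells 0, so the level was at least 4.56-fold higher, taking 3 counts as the limit of the empty group. The counting interval of that ratio begins at 3.38. Tox, the factor of lasting antigen exposure, had 241 against 44.4 CPM at 12 weeks, a ratio of 5.42 (4.09 to 7.29), and 224 against 92.0 CPM at 7 weeks, a ratio of 2.44 (1.76 to 3.43). Ccl5-low cells with much Tox were few at 7 weeks, when 5 cells held 54.2% of its UMIs there. Without the 5 richest cells of each side the Tox ratio was 7.57 at 12 weeks and 3.82 at 7 weeks. It was 1.69 at 7 weeks without cycling cells, and 7.19 and 1.71 after thinning.

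The early activation factors followed. Batf had 312 CPM in Ccl5-high and 73.8 CPM in Ccl5-low cells at 12 weeks, a ratio of 4.23 (3.39 to 5.33), and 266 against 93.9 CPM at 7 weeks, a ratio of 2.84 (2.07 to 3.96). Bhlhe40 had 86.7 against 31.7 CPM at 12 weeks and 99.7 against 24.9 CPM at 7 weeks, ratios of 2.73 and 4.0. Id2 had 630 against 235 CPM at 12 weeks and 480 against 270 CPM at 7 weeks, ratios of 2.68 and 1.78. Irf4 was sparse at 17.2 against 7.94 CPM and 15.7 against 3.83 CPM, and its 7-week interval of 0.914 to 37.8 included 1. Its ratios of 2.17 and 4.11 were 5.07 and 1.71 after thinning. The helper cell factors were not past the fold. Maf had 12.6 against 10.3 CPM at 12 weeks and 27.6 against 36.4 CPM at 7 weeks, where 5 cells held all 19 of its Ccl5-low UMIs. Its ratio there was 0.756, but 1.42 after thinning and 4.36 with 1 UMI more in the gates. Gata3 had 28.7 against 19.8 CPM and 45.9 against 30.7 CPM, which ended just inside the fold.

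Cells in between were in between for some factors only. At 12 weeks Tbx21 had 3.97, 11.0, 18.8 and 31.4 CPM in cells with at most 3, 4 to 9, 10 to 29 and at least 30 Ccl5 UMIs, and Eomes had 16.7, 39.5, 51.7 and 91.6 CPM. Tox was already at 163 CPM in the cells with 4 to 9 Ccl5 UMIs and at 273 and 236 CPM above them. Batf gave 73.8, 211, 240 and 322 CPM. The middle groups held 29 and 27 cells at 12 weeks and only 12 and 11 at 7 weeks, too few to read an order at that age. At 12 weeks the median was 10500 UMIs per cell with 4 to 9 Ccl5 UMIs, against 5001, 6315 and 5870 in the other groups. Depth and cycling were not held equal between the groups, and their part in the order was not tested.

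Other genes of the same network differed both ways between the Ccl5 states. Of 29 partners and antagonists 26 had a ratio at 12 weeks, 7 of them higher and 8 lower past the fold, and 25 had one at 7 weeks, 4 higher and 8 lower. Junb, a dimer partner of Batf, had 688 against 858 CPM at 12 weeks and 791 against 826 CPM at 7 weeks, ratios of 0.802 and 0.957. Irf8, an interferon regulatory factor, was lower in the Ccl5-high state, at 41.4 against 257 CPM at 12 weeks and 38.1 against 99.7 CPM at 7 weeks. Plasmacytoid dendritic markers, a lineage that expresses Irf8, were at 1.07 UMIs per 10000 in Ccl5-high and 6.07 in Ccl5-low cells at 12 weeks and at 1.35 and 2.40 at 7 weeks; their part in the Irf8 values was not tested. All 11 type 1 targets with a ratio at 12 weeks and all 10 at 7 weeks were higher, with Gzmb, a killing protease, at 314 against 3.97 CPM and 283 against 3.83 CPM. Ifng had 252 against 47.6 CPM and 268 against 70.9 CPM.

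**Figure D2:**
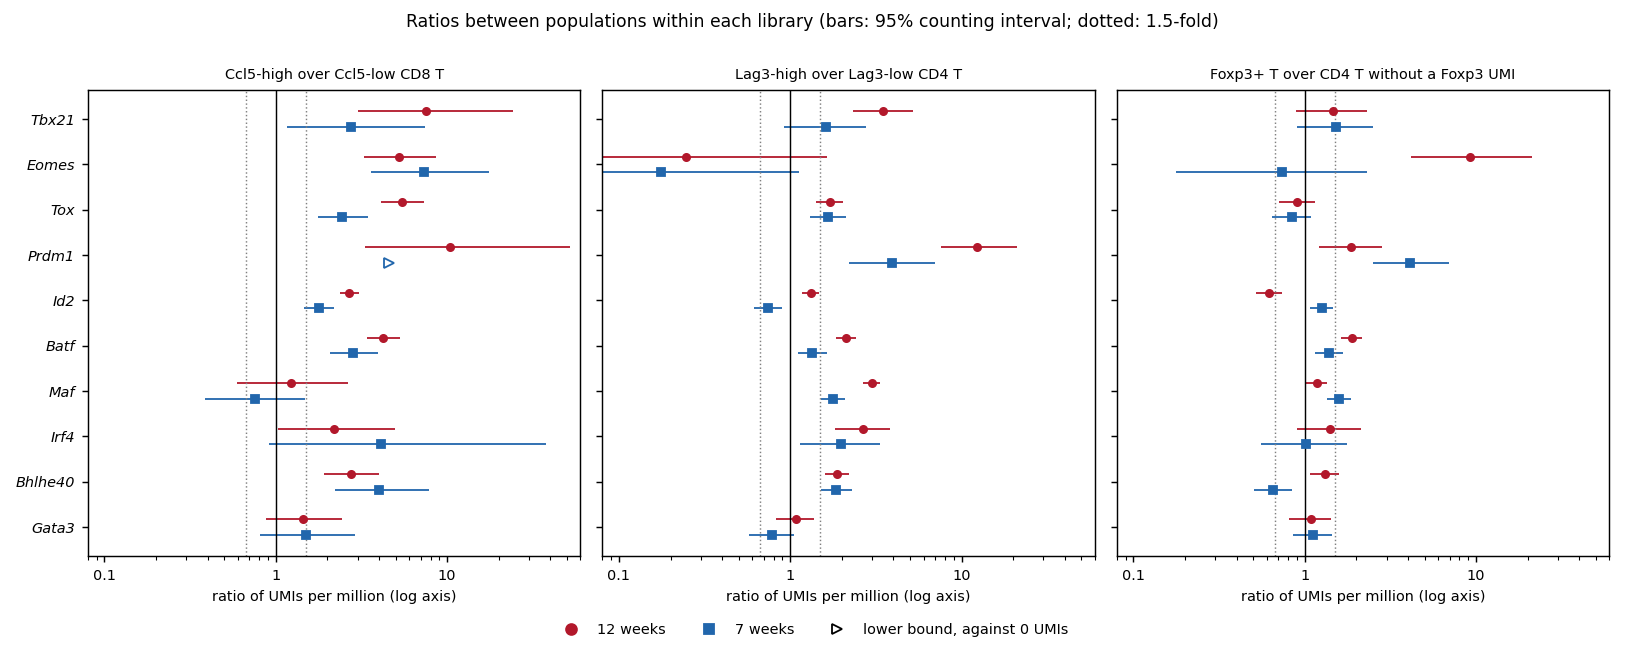
CPM ratio (log axis) of each factor between populations of the same library, for Ccl5-high over Ccl5-low CD8 T cells, Lag3-high over Lag3-low CD4 T cells and Foxp3+ T cells over CD4 T cells without a Foxp3 UMI, at 12 weeks (red) and 7 weeks (blue), with 95% counting intervals that are clipped where they leave the axis and dotted lines at 1.5-fold. All but Maf and Gata3 lie to the right of the upper dotted line in the Ccl5 panel, and Prdm1 lies to the right of it in all 3 panels at both ages.

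In CD4 T cells the inhibitory receptor Lag3 marked a state with a partly different set of factors, in which Prdm1 and Maf were higher at both ages. Lag3-high cells (at least 5 Lag3 UMIs) numbered 151 at 12 weeks and 77 at 7 weeks, and Lag3-low cells 666 and 279. At 12 weeks 7 members were higher and 1 lower past the fold in Lag3-high cells, where 16.8% of all genes were higher and 15.0% lower. At 7 weeks 6 were higher and 1 lower, where 12.7% and 16.7% of all genes were. The median of the members was 0.99 on the log2 scale at 12 weeks and 0.71 at 7 weeks, beside 0.08 and 0.01 over all genes.

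Among the members that were higher, Prdm1 had the largest ratio at each age, with 68.5 CPM in Lag3-high and 5.54 CPM in Lag3-low cells at 12 weeks, a ratio of 12.4 (7.58 to 21.1), and 44.1 against 11.3 CPM at 7 weeks, a ratio of 3.90 (2.21 to 6.98). At 3000 UMIs per cell, 21.9% of Lag3-high cells at 12 weeks and 14.5% at 7 weeks held a Prdm1 UMI, against 2.10% and 4.12% of Lag3-low cells. Maf had 460 against 154 CPM at 12 weeks, a ratio of 2.98 (2.65 to 3.36), and 335 against 188 CPM at 7 weeks, a ratio of 1.78 (1.51 to 2.10). A Maf UMI was found in 68.2% of thinned Lag3-high cells at 12 weeks and 53.9% at 7 weeks, against 27.8% and 34.5% of Lag3-low cells and 1.44% and 0.926% of B cells. Both factors were thus higher in the Lag3-high state at both ages, with the larger ratio at 12 weeks.

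Tox and Bhlhe40 had near-equal ratios at the 2 ages in sums at full depth. Tox had 151 CPM in Lag3-high and 89.1 CPM in Lag3-low cells at 12 weeks and 156 against 93.9 CPM at 7 weeks, ratios of 1.70 and 1.66. The 12-week Tox ratio was 2.37 after thinning and 2.15 without cycling cells. It was 2.09 as a mean over cells and 1.39 with 1 UMI more in the gates. Bhlhe40 had 195 against 104 CPM and 208 against 112 CPM, ratios of 1.87 and 1.86. At 7 weeks 5 cells held 45.7% of the Lag3-high Bhlhe40 UMIs. Without the 5 richest cells of each side the 7-week Bhlhe40 ratio was 1.39, and after thinning it was 2.45. Irf4 had 48.2 against 18.2 CPM at 12 weeks, a ratio of 2.65 (1.83 to 3.82), and 35.9 against 18.2 CPM at 7 weeks, a ratio of 1.97 (1.15 to 3.34). The Irf4 value at 7 weeks rested on few cells, since 5 cells held 73.1% of its Lag3-high UMIs and the ratio was 0.962 without the 5 richest of each side.

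Tbx21 and Batf were higher mainly at 12 weeks. Tbx21 had 45.7 against 13.2 CPM at 12 weeks, a ratio of 3.46 (2.31 to 5.20), and 31.7 against 19.7 CPM at 7 weeks, a ratio of 1.61 (0.922 to 2.76). Batf had 318 against 150 CPM, a ratio of 2.12 (1.86 to 2.42), and 219 against 163 CPM, a ratio of 1.35 (1.11 to 1.63). Id2 changed side with age, at 346 against 263 CPM at 12 weeks and 200 against 270 CPM at 7 weeks. Gata3 was level, at ratios of 1.07 and 0.784. Eomes was nearly missing from Lag3-high cells, with 1 UMI at each age against 13 and 16 UMIs in Lag3-low cells. The Lag3-high cells also held fewer UMIs of all genes, 1181947 against 3791535 at 12 weeks and 725059 against 2033431 at 7 weeks. With no doublets removed the 12-week Eomes ratio was 1.71. With every cell that held a Foxp3 UMI left out, the ratios of Prdm1 were 13.5 and 4.96, of Maf 3.05 and 1.73 and of Bhlhe40 2.12 and 2.08.

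The factors did not share 1 dose relation with Lag3. At 12 weeks Tox, Bhlhe40 and Irf4 had most of their difference between cells with no Lag3 UMI and cells with 1 to 4, which count as Lag3-low. Tox had 49.6, 161, 136 and 166 CPM at 12 weeks in cells with 0, 1 to 4, 5 to 9 and at least 10 Lag3 UMIs, and 64.5, 127, 157 and 154 CPM at 7 weeks. Bhlhe40 had 63.5, 177, 191 and 198 CPM at 12 weeks and 89.8, 137, 231 and 149 CPM at 7 weeks. Irf4 had 7.79, 37.0, 47.7 and 48.7 CPM at 12 weeks, and at 7 weeks was higher with each step, at 11.2, 25.9, 32.5 and 44.7 CPM. Maf was higher with each step at 12 weeks, at 88.9, 272, 387 and 533 CPM, and stood at 109, 276, 262 and 527 CPM at 7 weeks. Prdm1 stayed low until 5 Lag3 UMIs, at 3.69, 8.88, 40.9 and 95.8 CPM at 12 weeks and 6.55, 16.6, 49.6 and 29.8 CPM at 7 weeks. Tbx21 at 12 weeks did the same, at 12.3, 14.8, 42.6 and 48.7 CPM. Cells with more UMIs hold more Lag3 UMIs as well, and the median was 6219 UMIs in Lag3-high and 4514.5 in Lag3-low cells at 12 weeks. After thinning, the Prdm1 ratio was 9.31 at 12 weeks and 3.51 at 7 weeks and the Maf ratio 3.30 and 2.10.

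**Figure D3:**
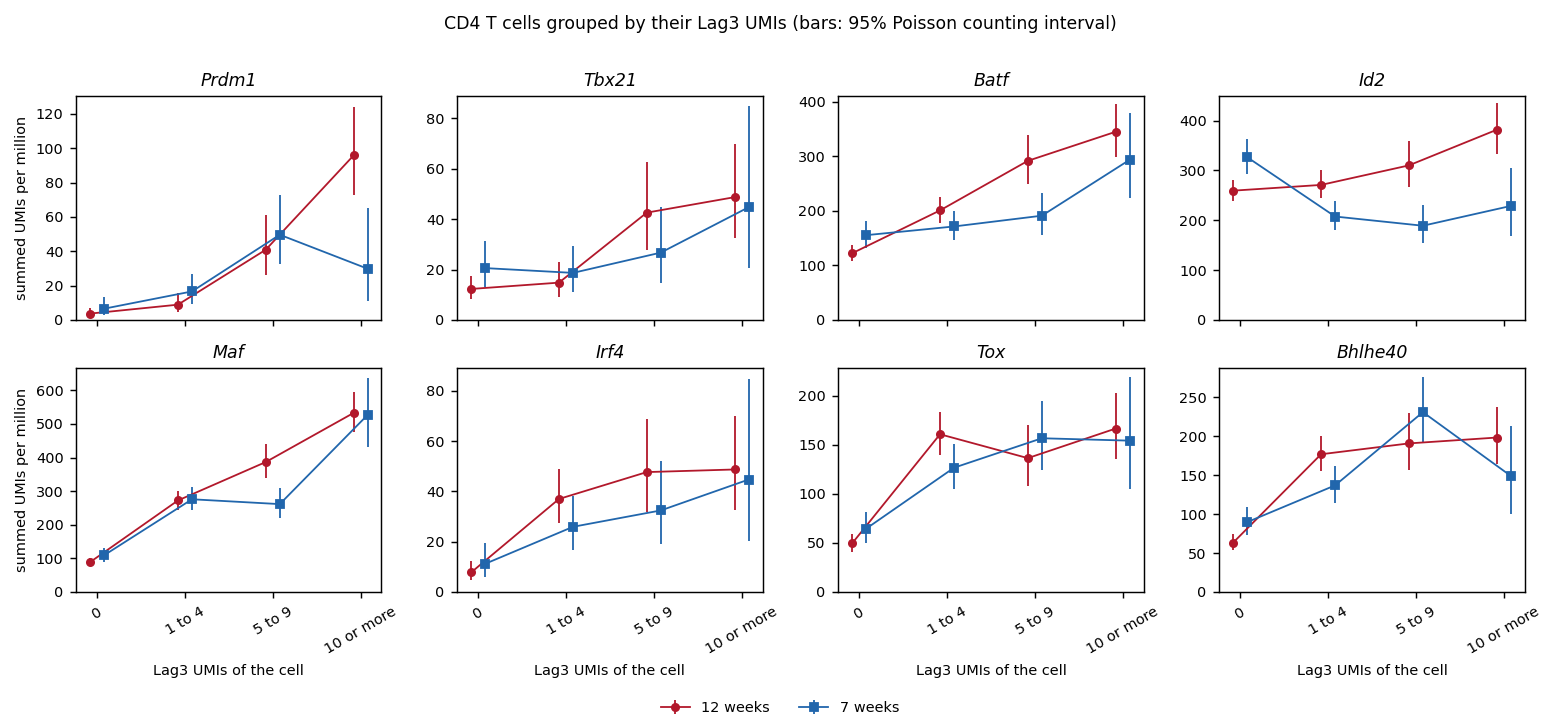
Summed UMIs as CPM (linear axis from 0) of 8 factors in CD4 T cells grouped by their number of Lag3 UMIs, at 12 weeks (red circles) and 7 weeks (blue squares), with 95% Poisson counting intervals. At 12 weeks Tox and Bhlhe40 step up between 0 and 1 to 4 Lag3 UMIs, whereas Prdm1 at 12 weeks steps up from 5 UMIs on and Maf is highest in the last group.

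Many genes listed as targets of these factors were higher in the Lag3-high state, and whether the factors regulate them here was not tested. Over all genes 16.8% were higher and 15.0% lower at 12 weeks, and 12.7% and 16.7% at 7 weeks. Of the type 1 targets with a ratio, 6 of 10 were higher and 1 lower in Lag3-high cells at 12 weeks, and 8 of 10 were higher at 7 weeks. Ifng had 223 against 67.0 CPM at 12 weeks and 428 against 90.5 CPM at 7 weeks, and the chemokine receptor Cxcr6 had 350 against 65.9 CPM and 287 against 87.0 CPM. Of the helper 2 and follicular targets 6 of 8 were higher at 12 weeks, and 4 of 7 were higher and 2 lower at 7 weeks. Il10, a target of Maf and Prdm1, had 135 against 12.1 CPM at 12 weeks and 297 against 8.85 CPM at 7 weeks. Il21, another Maf target, had 96.5 against 25.6 CPM and 74.5 against 25.1 CPM, and Icos had 241 against 91.0 CPM and 215 against 99.8 CPM. Among partners and antagonists 7 of 28 were higher and 5 lower at 12 weeks, 3 of 27 higher and 7 lower at 7 weeks, and Jun had 320 against 551 CPM and 317 against 526 CPM.

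T cells with a Foxp3 UMI, the marker of regulatory T cells, carried Prdm1 past the fold above other CD4 T cells at both ages. Batf was past the fold at 12 weeks only. Only 57 of the 101 Foxp3+ T cells at 12 weeks and 50 of the 82 at 7 weeks met the CD4 gate. Among all of them, 51 and 36 rested on a single Foxp3 UMI, and 19 and 15 held a Cd8 UMI. Against CD4 T cells without a Foxp3 UMI, 3 members were higher and 1 lower past the fold at each age, where 17.5% of all genes were higher and 19.3% lower at 12 weeks and 17.9% and 13.1% at 7 weeks. Prdm1 had 37.1 CPM in Foxp3+ T cells against 19.9 CPM in the others at 12 weeks, a ratio of 1.87 (1.21 to 2.82), and 51.3 against 12.4 CPM at 7 weeks, a ratio of 4.13 (2.50 to 6.92). Batf had 323 against 172 CPM at 12 weeks and 220 against 159 CPM at 7 weeks, ratios of 1.87 and 1.39. Maf had 259 against 221 CPM and 307 against 194 CPM, ratios of 1.17 and 1.58. Tbx21 had ratios of 1.46 and 1.52 whose intervals both included 1. After thinning the 12-week Tbx21 ratio was 2.85. Id2 had 179 against 288 CPM at 12 weeks and 308 against 246 CPM at 7 weeks, but the 7-week Id2 ratio of 1.25 was 0.695 without the 5 richest cells of each side, 0.698 without cycling cells and 0.967 after thinning. Bhlhe40 had 154 against 118 CPM at 12 weeks and 95.4 against 146 CPM at 7 weeks. Gata3 had ratios of 1.08 and 1.11, and Tox of 0.905 and 0.843.

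Within Lag3 levels the Foxp3+ comparison gave other values. Among Lag3-low cells Prdm1 had 32.9 CPM in Foxp3+ T cells against 5.11 CPM in other CD4 T cells at 12 weeks, a ratio of 6.44 (3.16 to 13.1), and 38.8 against 6.41 CPM at 7 weeks, a ratio of 6.06 (2.82 to 13.8). After thinning these ratios were 3.53 and 6.74. Among Lag3-high cells Prdm1 had 44.4 against 69.3 CPM at 12 weeks and 79.6 against 31.8 CPM at 7 weeks, ratios of 0.641 (0.334 to 1.15) and 2.50 (1.25 to 5.09). Bhlhe40 was lower in the Lag3-high Foxp3+ cells at both ages, at 98.3 against 199 CPM and 115 against 241 CPM, ratios of 0.493 and 0.478. The Batf ratio was 1.11 at 12 weeks and 1.83 at 7 weeks among Lag3-high cells, and 2.36 and 1.12 among Lag3-low cells. The Lag3-high Foxp3+ groups held 30 and 22 cells. Eomes had 19 UMIs in Foxp3+ T cells at 12 weeks, but 16 of them came from 1 cell, so its ratio of 9.17 describes 2 cells. One cell also held 89.1% of the macrophage marker UMIs of the 7-week Foxp3+ T cells (6.19 per 10000), and without that cell the count past the fold stayed within 1.5 times.

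Foxp3+ T cells also differed in partners and targets. Ikzf2 (Helios), a zinc-finger factor of regulatory T cells, had 854 against 192 CPM at 12 weeks and 830 against 203 CPM at 7 weeks. Ifng had 44.1 against 112 CPM and 40.3 against 211 CPM, and Il21 had 13.9 against 45.9 CPM and 1.22 against 46.2 CPM. Il10 had 61.5 against 38.9 CPM at 12 weeks and 212 against 33.8 CPM at 7 weeks. Over the lists, 8 of 28 partners were higher and 7 lower at 12 weeks and 7 of 27 higher and 7 lower at 7 weeks. Type 1 targets gave 4 of 10 higher and 2 lower at 12 weeks, and 5 of 10 higher and 1 lower at 7 weeks. Helper 2 and follicular targets gave 5 of 8 higher and 3 lower, and 5 of 7 higher and 2 lower.

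Ncr1+ cells, which carry the natural killer receptor NKp46, combined the T-box factors of CD8 effectors with less Tox and Batf than Ccl5-high CD8 T cells. Only 10 of the 70 at 12 weeks and 14 of the 90 at 7 weeks had no Cd3 UMI, so they are named here by the gate alone. None of them at 12 weeks and 3 at 7 weeks were also Ccl5-high CD8 T cells. Tbx21 had 72.8 CPM in Ncr1+ cells against 29.9 CPM in Ccl5-high CD8 T cells at 12 weeks, a ratio of 2.44 (1.49 to 3.91), and 78.3 against 36.7 CPM at 7 weeks, a ratio of 2.13 (1.32 to 3.50). Eomes was level with them, at 87.8 against 86.7 CPM and 102 against 113 CPM. Tox had 37.6 against 241 CPM at 12 weeks and 53.2 against 224 CPM at 7 weeks, and Batf had 125 against 312 CPM and 82.8 against 266 CPM. Id2, which innate lymphocytes need, had 956 against 630 CPM and 612 against 480 CPM. Bhlhe40 had 176 against 86.7 CPM and 146 against 99.7 CPM, and Irf4 had only 2 UMIs at each age. Of the 10 members 5 were higher and 4 lower at 12 weeks, where 19.6% of all genes were higher and 24.2% lower, and 3 were higher and 4 lower at 7 weeks, where 19.2% and 16.8% were. Macrophage markers stood at 8.26 UMIs per 10000 in the 7-week Ncr1+ cells, 90.7% of them from 1 cell.

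Dividing T cells (at least 5 UMIs over 14 cell cycle genes) had more Eomes and less Maf than the others when CD8 and CD4 T cells were pooled. The 12-week library held 122 cycling CD8 and CD4 T cells and the 7-week library 66, with medians of 15138 and 16647 UMIs, against 1155 and 461 non-cycling cells with 4781 and 5606. Past the fold, 1 member was higher and 2 lower at 12 weeks, where 19.8% of all genes were higher and 24.9% lower. At 7 weeks 1 was higher and 3 lower, where 20.4% and 24.5% were. The 12-week count of 3 was 7 after thinning. Eomes had 46.9 CPM in cycling and 16.6 CPM in non-cycling cells at 12 weeks, a ratio of 2.82 (2.12 to 3.75), and 63.4 against 19.8 CPM at 7 weeks, a ratio of 3.20 (2.25 to 4.57). Maf had 71.0 against 161 CPM and 72.6 against 192 CPM, and Gata3 30.8 against 56.3 CPM and 55.1 against 85.9 CPM.

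The lineage makeup of the cycling cells moved with these values: 69 of the 122 at 12 weeks and 31 of the 66 at 7 weeks were CD8 T cells, against 391 of 1155 and 140 of 461 non-cycling cells. Within CD8 T cells Eomes had 80.0 against 41.2 CPM at 12 weeks and 113 against 58.7 CPM at 7 weeks, ratios of 1.94 (1.44 to 2.61) and 1.93 (1.32 to 2.83). Within Ccl5-high CD8 T cells the Eomes ratio was 1.29 (0.929 to 1.81) and 1.3 (0.830 to 2.03). Batf had 296 against 166 CPM and 260 against 159 CPM within CD8 T cells, ratios of 1.78 and 1.64, and 1.13 and 1.40 within Ccl5-high cells. Within CD4 T cells Eomes at 12 weeks had 1 UMI in cycling and 13 UMIs in non-cycling cells, 1.13 against 3.18 CPM, a ratio of 0.355 (0.00835 to 2.36). At 7 weeks it had 8 and 9 UMIs, 13.4 against 4.17 CPM, a ratio of 3.21 (1.08 to 9.36). Within CD4 T cells Maf had 159 against 242 CPM and 140 against 251 CPM, and Id2 had 124 against 318 CPM at 12 weeks and 205 against 264 CPM at 7 weeks. Irf4 had 37.2 against 22.8 CPM and 33.4 against 19.9 CPM in CD4 T cells, ratios of 1.64 (1.07 to 2.46) and 1.68 (0.935 to 2.91).

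Many partner genes were lower in cycling cells. Of 28 partners and antagonists with a ratio at 12 weeks 14 were lower and 2 higher, and of 27 at 7 weeks 17 were lower and 1 higher. Junb had 388 against 1128 CPM and 415 against 1255 CPM, and Jun had 150 against 565 CPM and 193 against 533 CPM. Gzmb was the other way, at 191 against 37.0 CPM and 148 against 31.7 CPM, among 4 of 12 type 1 targets that were higher and 1 lower at 12 weeks, and 3 of 11 higher and 3 lower at 7 weeks. Helper 2 and follicular targets gave 5 of 8 lower and 5 of 7 lower and none higher.

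Between the ages the number of members past the fold differed between gates, and so did the share of all genes past it. In CD8 T cells 2 of 10 members were past the fold, both lower at 12 weeks, where 12.2% of all genes were higher and 11.4% lower. In CD4 T cells 1 was lower, where 8.41% were higher and 13.2% lower, and in Foxp3+ T cells 3 were higher and 1 lower, where 16.1% were higher and 19.2% lower. In Ncr1+ cells 3 were higher and 2 lower, where 15.1% were higher and 18.7% lower, and in Ccl5-low CD8 T cells 1 was higher and 4 lower, where 16.0% and 16.6% were. Gata3 was lower at 12 weeks in every T cell gate, though not past the fold in each. It had 23.7 CPM at 12 weeks against 38.1 CPM at 7 weeks in CD8 T cells, a ratio of 0.622 (0.438 to 0.890), 68.2 against 97.9 CPM in CD4 T cells, a ratio of 0.696 (0.592 to 0.820), and 71.9 against 106 CPM in Foxp3+ T cells, a ratio of 0.676 (0.480 to 0.948). Summed over cells thinned to equal depth, the same ratios were 0.709, 0.877 and 0.823.

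Eomes and Tbx21 in CD8 T cells were also lower at 12 weeks, at 55.0 against 81.0 CPM and 17.9 against 26.6 CPM, ratios of 0.679 (0.537 to 0.861) and 0.676 (0.445 to 1.04) that stopped short of the fold. Both were lower in Ccl5-high CD8 T cells as well. In Ccl5-low CD8 T cells the Eomes ratio was 1.09, and the Tbx21 ratio was 0.296 on 5 and 7 UMIs. Maf had 11.3 against 28.6 CPM in CD8 T cells, but 5 cells held 71.4% of the 7-week UMIs and without the 5 richest cells of each side the ratio was 0.852. The Eomes difference in CD4 T cells, 2.81 against 6.16 CPM, rested on 14 and 17 UMIs. Within the states other members differed between the ages. Lag3-high CD4 T cells had 346 against 200 CPM of Id2, a ratio of 1.73 (1.43 to 2.11), 68.5 against 44.1 CPM of Prdm1, a ratio of 1.55 (1.02 to 2.42), and 318 against 219 CPM of Batf, a ratio of 1.45 (1.20 to 1.76). Lag3-low cells went the other way for Prdm1, at 5.54 against 11.3 CPM, a ratio of 0.490 (0.258 to 0.925). Ccl5-low CD8 T cells had 44.4 against 92.0 CPM of Tox, a ratio of 0.483 (0.323 to 0.725), while Ccl5-high cells were level at 241 against 224 CPM.

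In Foxp3+ T cells Bhlhe40 had 154 CPM at 12 weeks against 95.4 CPM at 7 weeks, a ratio of 1.62 (1.21 to 2.17), and 2.24 (1.51 to 3.35) with cycling cells left out; after thinning it was 3.58. Batf had 323 against 220 CPM, a ratio of 1.47 that was 1.68 without cycling cells. Irf4 was past the fold at 33.6 against 22.0 CPM, with an interval of 0.821 to 2.92, and the Eomes count there came from 2 cells. Id2 had 179 against 308 CPM, but 5 cells held 58.3% of its 7-week UMIs, and without cycling cells the levels were 212 against 187 CPM. Ncr1+ cells had 956 against 612 CPM of Id2, a ratio of 1.56 (1.36 to 1.80). Of the targets, Ifng had 104 against 179 CPM and Il10 41.2 against 84.5 CPM in CD4 T cells, and Il10 had 61.5 against 212 CPM in Foxp3+ T cells. Partners and antagonists gave 4 higher and 4 lower of 27 in CD8 T cells, 1 and 7 of 28 in CD4 T cells and 2 and 8 of 26 in Foxp3+ T cells. Age cannot be told apart from library, because each age is 1 library.

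**Figure D4:**
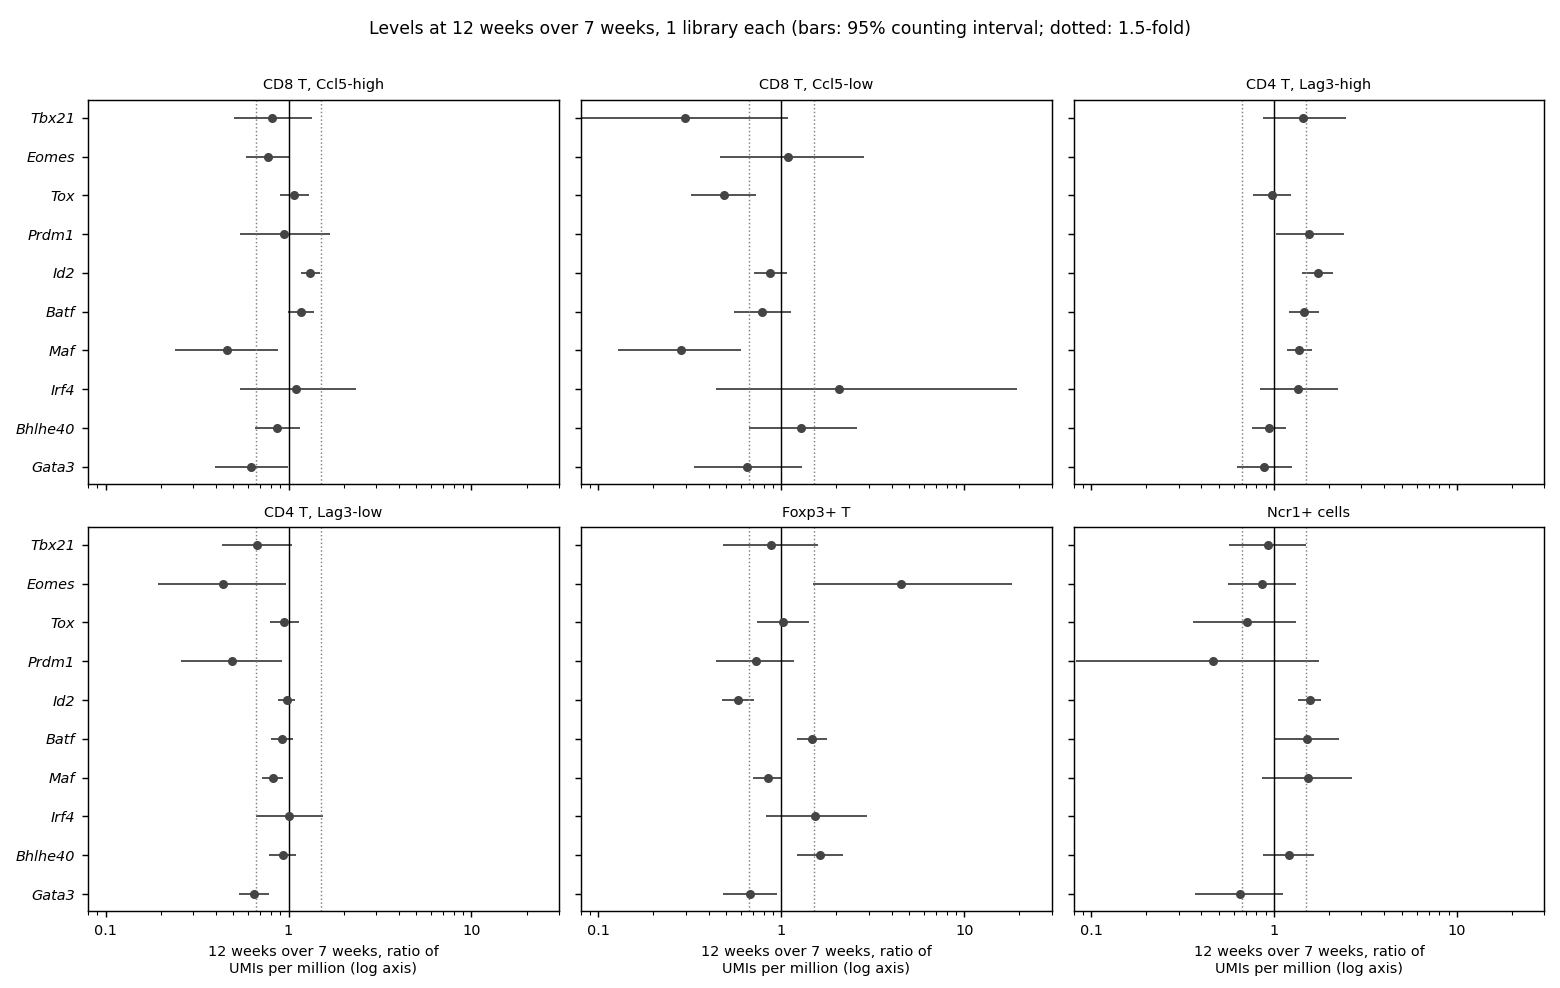
CPM ratio (log axis) of each factor at 12 weeks over 7 weeks in 6 gated populations, with 95% counting intervals that are clipped where they leave the axis and dotted lines at 1.5-fold; a factor with fewer than 10 UMIs over both libraries has no point. Gata3 lies left of 1 in all 6 panels, and Id2 lies right of 1 in Lag3-high CD4 T and Ncr1+ cells and left of it in Foxp3+ T cells.

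Members were also counted per cell at equal depth. Out of 10 members, a thinned Lag3-high CD4 T cell held a UMI of 3.12 on average at 12 weeks and 2.46 at 7 weeks, and a Lag3-low cell 1.64 and 1.89. Ccl5-high CD8 T cells held 2.31 and 2.38, and Ccl5-low cells 0.862 and 1.04. Foxp3+ T cells held 2.37 and 2.30, Ncr1+ cells 2.27 and 2.13, and B cells 0.373 and 0.426. At least 3 members were found in 64.2% of the 12-week and 47.4% of the 7-week Lag3-high CD4 T cells, in 24.8% and 28.5% of Lag3-low cells, in 42.1% and 41.5% of Ccl5-high CD8 T cells and in 4.61% and 4.29% of Ccl5-low cells.

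Several pairs of members met in the same cell more often than their single shares multiply to at 12 weeks, and some of these were near the product at 7 weeks. Within 1 state some of them also came closer to the product. Among non-cycling CD4 T cells Prdm1 and Maf met in 32 cells at 12 weeks where the product of shares is 15.8, and in 14 at 7 weeks where it is 7.34, ratios of 2.03 (1.39 to 2.86) and 1.91 (1.04 to 3.20). Within Lag3-high cells without a Foxp3 UMI the same pair met in 22 cells against 19.3 and in 5 against 3.29. Maf and Bhlhe40 met in 86 cells against 53.3 at 12 weeks and in 28 against 25.5 at 7 weeks. That pair met in 50 against 25.6 within Lag3-low cells and 25 against 25.0 within Lag3-high cells at 12 weeks. Maf and Irf4 met in 28 against 13.7 at 12 weeks but in 6 against 6.57 at 7 weeks.

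In non-cycling CD8 T cells Tox and Batf met in 38 cells against 23.3 at 12 weeks and in 14 against 9.25 at 7 weeks. Eomes and Tox met in 20 against 9.35 at 12 weeks and in 6 against 5.61 at 7 weeks. Batf and Bhlhe40 met in 22 against 13.4 and in 12 against 5.50. Within the Ccl5-high cells the Tox and Batf pair met in 33 against 27.7 and in 12 against 7.57, and Batf and Bhlhe40 in 16 against 16.2 and in 10 against 5.51. The T-box pair, Tbx21 and Eomes, met in 2 cells against 1.76 and 1 against 1.36 in CD8 T cells. In Ncr1+ cells it met in 3 against 3.53 and 2 against 3.24. These counts are too small to place the pair above, at or below the product. At 3000 UMIs per cell a factor at these levels can be missed in a cell that holds its RNA, which limits every count of cells with both.

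**Figure D5:**
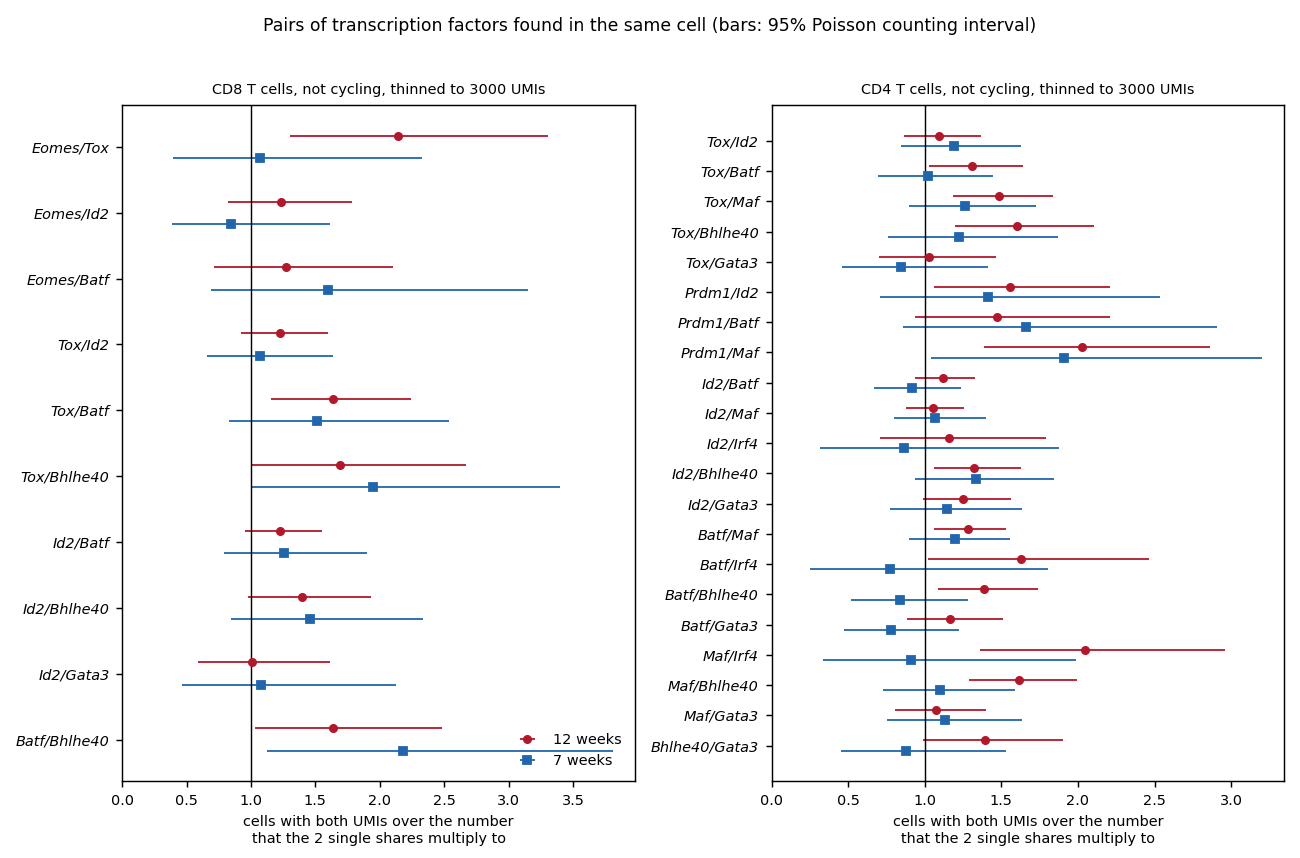
Number of non-cycling, thinned cells with a UMI of both factors over the number that the 2 single shares multiply to (linear axis), for pairs with a product of at least 5 in both libraries, in CD8 T cells (left) and CD4 T cells (right), at 12 weeks (red) and 7 weeks (blue), with 95% Poisson counting intervals. Prdm1 with Maf lies above 1 at both ages, whereas Maf with Irf4 does so at 12 weeks only.

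Cells with a UMI of 1 factor were set against cells of the same gate without it to see what else they carried, all thinned and not cycling, with genes ranked by the bound of their interval nearest to 1 at the age where it was lower. CD4 T cells with Maf carried Il10 at 107 CPM against 13.4 CPM without Maf at 12 weeks and 213 against 42.3 CPM at 7 weeks, from 31 and 17 cells. They also led in Lag3, at 1106 against 166 CPM and 678 against 226 CPM, and in Gzmk, a granzyme, at 114 against 30.2 CPM and 56.0 against 8.82 CPM. CD4 T cells with Prdm1 led in the receptors Tnfrsf1b, Cxcr6 and Ctla4, where Cxcr6 had 963 against 121 CPM and 579 against 131 CPM. CD4 T cells with Bhlhe40 held every Ccl1 UMI of the gate, 22 UMIs from 3 cells at 12 weeks and 31 from 5 cells at 7 weeks, so this chemokine came from a handful of cells. They also led in Ifng, at 219 against 79.0 CPM and 354 against 145 CPM, and 37 of the 70 UMIs behind the 7-week value were in 1 cell. CD4 T cells with Irf4 had Ctla4 at 410 against 143 CPM and 765 against 167 CPM, of which 20 of 39 UMIs at 7 weeks were in 1 cell.

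CD8 T cells with Tox led in Pdcd1, the gene of the inhibitory receptor PD-1, at 482 against 73.0 CPM at 12 weeks and 559 against 116 CPM at 7 weeks. They also carried Rgs16, a regulator of G protein signals, at 494 against 134 CPM and 505 against 119 CPM, and the natural killer receptor Klre1 at 286 against 52.3 CPM and 270 against 28.1 CPM. Eomes-bearing CD8 T cells shared Klre1, at 295 against 79.5 CPM and 267 against 65.5 CPM. CD8 T cells with Batf led in S100a4, at 626 against 168 CPM and 1061 against 253 CPM, and in Lag3, at 617 against 237 CPM and 545 against 155 CPM. The Ccl5 or Lag3 state of the cells was not held fixed in these comparisons.

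Over 19 populations (Ccl5-high and Ccl5-low CD8 T, Lag3-high CD4 T without Foxp3, Lag3-low CD4 T, Foxp3+ T, Ncr1+, double-negative T, B and plasmacytoid dendritic-like cells at both ages and macrophage-like cells at 12 weeks), each member was matched to the genes with the most similar level, by Pearson r of log2(CPM + 10). Eomes was most like Klrc2 and Klrc1, with r of 0.966 and 0.959, a pair of near-identical receptor genes that counting may not separate, and then Klre1 at 0.943. Tox was most like Rgs16 and Pdcd1, at 0.983 and 0.976, and among the other members like Batf, at 0.886. Tbx21 was most like Fhl2 at 0.925, Maf like Galm and Tnfrsf4 at 0.928 and 0.922, and Gata3 like Faah and Cd28 at 0.935 and 0.931. Prdm1 was most like Ube2n at 0.869, Id2 like Crot at 0.940, Irf4 like Atp5g2 at 0.858 and Bhlhe40 like Abi2 at 0.859. Batf was most like Tk1, a DNA synthesis gene, at 0.949. The points share 2 libraries, and no p is given.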

How the data were processed

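Single-cell RNA from islet CD45.1+ cells was made into 10x Genomics 3' libraries, per the labels' protocols. The deposited matrices hold UMI counts per gene and barcode, made by the authors with Cell Ranger 1.3.1 on mm10, per the submitters' processing notes. Annotation settings are not given in the sources used here.

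A filter of at least 200 genes and no more than 10% mitochondrial UMIs took out 8 of 2812 barcodes at 12 weeks and 4 of 1113 at 7 weeks. Doublets were scored against simulated pairs, and the highest scores were removed up to a loading rate of 0.8% per 1000 barcodes, 63 and 10 cells. The libraries shared 2 barcodes, which were kept in both. Totals were 19288252 and 8701184 UMIs; the deposited counts set the precision, and intervals cover counting error only. Thinning drew 3000 UMIs per cell; 0 and 53 cells had fewer.

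Gates used UMIs: CD8 T, Cd8a plus Cd8b1 of at least 2 and no Cd4; CD4 T, at least 1 Cd4 and no Cd8; B, Cd79a of at least 2 and no Cd3 or Ncr1. Double-negative T cells had at least 2 Cd3 UMIs and neither Cd4 nor Cd8. Named genes were all members, list genes with the most UMIs (2 to 4 a list), the 3 genes most like a member and the 5 leading companions; not all of these are printed. Members, gates and lists were chosen with earlier results of these data known. The contrasts of CD8 T with CD4 T cells, with B cells and with Ncr1+ cells were added later. Every per-sample column was used. Code ran in Python 3.11.15 with numpy 2.4.6, scipy 1.17.1, pandas 2.3.3 and scikit-learn 1.9.0 and was tested on simulated data.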

Additional observations from a re-analysis of the deposited data

Results flagged for a closer look

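The ratios of 3 comparisons lay on opposite sides of 1 in the 2 libraries, each with a counting interval that left out 1. Id2 in Lag3-high over Lag3-low CD4 T cells was 1.31 (1.17 to 1.47) in the 12-week library and 0.741 (0.613 to 0.891) in the 7-week one. Id2 in Foxp3+ T cells over CD4 T cells without a Foxp3 UMI was 0.620 (0.521 to 0.733) in the 12-week library and 1.25 (1.08 to 1.46) in the 7-week one, where 1 cell held 66 of the 252 Foxp3+ UMIs and the ratio without the 5 richest cells of each side was 0.695 and after thinning 0.967. Bhlhe40 in the same comparison was 1.3 (1.07 to 1.58) in the older and 0.655 (0.505 to 0.840) in the younger mice. Its ratio was 1.06 in the older mice without the 5 richest cells of each side, and 0.357 in the younger after thinning. None of these differences between ages was tested, since each age is 1 library.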

How the results depend on the processing

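Alternatives changed gates, doublet removal, barcode filters, depth, averaging, the fold and the cells included. Of 143 alternative counts of members past the fold 111 stayed within 1.5 times of the reported count, and of 1276 alternative ratios 1095 moved by less than their counting interval. The Ccl5 counts of 8 and 8 and the 12-week Lag3 count of 8 stayed within 1.5 times in every alternative. The 7-week Lag3 count of 7 was 4 with 1 UMI more in the gates, 2 without the 5 richest cells of each side and 2 at 2-fold. The Foxp3 count of 4 at 12 weeks was 2 without the 5 richest cells and 1 at 2-fold. At 7 weeks it was 1 with no doublets removed, 1 with all barcodes, 1 at 2-fold, 2 as a mean over cells, 2 divided by the median ratio and 8 within Lag3-high cells. The 12-week cycling count of 3 was 7 thinned, 6 as a mean over cells, 5 within CD8, 5 within CD4 and 1 within Ccl5-high CD8 T cells, and the 7-week count of 4 was 2 at 2-fold. The age count of 2 in CD8 T cells was 1 with UMI gates only, 1 without the 5 richest cells, 1 at 2-fold, 4 divided by the median ratio and 5 within Ccl5-low cells. In CD4 T cells the count of 1 was 0 with 1 UMI more, without cycling cells, thinned, as a mean over cells and without the 5 richest cells. It was 2 without Foxp3 cells, 3 within Lag3-low and 2 within Lag3-high cells. In Foxp3+ T cells the count of 4 was 2 without the 5 richest cells and 1 at 2-fold.

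Of all alternative ratios 113 lay on the other side of 1 than the reported one, 58 of them by less than the counting interval. For 10 of them the reported ratio was past the fold. Eomes in the 12-week Lag3 comparison was 1.71 with no doublets removed and 1.71 with all barcodes, on few UMIs. Irf4 in the 7-week Lag3 comparison was 0.962 without the 5 richest cells. Within Lag3-high cells the Foxp3 comparison gave 0.641 for Prdm1 at 12 weeks and 0.876 for Tbx21 at 7 weeks. Cycling over non-cycling was 0.355 for Eomes within CD4 T cells at 12 weeks and 1.33 for Prdm1 within CD8 T cells at 7 weeks. Over age, Eomes in CD4 T cells was 1.23 with 1 UMI more in the gates, and Id2 in Foxp3+ T cells was 1.13 without cycling cells and 1.03 as a mean over cells. Among ratios nearer to 1, Id2 in the 7-week Foxp3 comparison was 0.695 without the 5 richest cells, 0.698 without cycling cells and 0.801 as a mean over cells. Maf in the 7-week Ccl5 comparison was 4.36 with 1 UMI more in the gates, and Bhlhe40 in the 12-week Foxp3 comparison was 0.493 within Lag3-high cells. The cause of these moves was not tested, except that the within-population values use fewer cells. The median ratio of all genes was shifted by 0.17 and 0.12 (log2) in the Ccl5 comparison, by 0.19 and 0.29 in CD4 T over B cells, by 0.16 and 0.23 in CD8 T over B cells and by 0.12 for cycling cells at 7 weeks within CD8 T and within Ccl5-high CD8 T cells. It was under 0.1 in the Lag3, Foxp3 and pooled cycling comparisons and in those of age in CD8 T, CD4 T and Foxp3+ T cells. No paired analysis was possible because each age is a single library. Depth limits Prdm1, Irf4 and Tbx21 most: 0 UMIs in a population is a limit of 3 counts.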
